A study of Rattus norvegicus with 113 samples.

Results

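Messenger RNA of the hippocampus of naive rats was measured 2 weeks (2wk), 6 months (6mo) and 12 months (1yr) into a study of traumatic brain injury. The members are the 12 arrays of 113 whose titles give naive hippocampus at these intervals on the larger of the study's array designs, 4 at each interval and 1 rat an array. The rats were adult male Sprague-Dawley rats that were never anesthetized or handled, were not operated on, and were killed at the intervals of the injured rats. The interval is therefore time spent in the study, and the age of the rats in weeks is not given in the sources used here. Tissue was the hippocampus taken free of cortex and midbrain with forceps. Sham rats of the same intervals (12 hippocampal arrays), which were anesthetized with isoflurane and had the scalp opened and the skull trephined but no pressure pulse, and the cortex of naive rats (12 arrays) were used to set the naive hippocampus beside other samples. The question was how the hippocampus of an undisturbed rat changed over a year in which nothing was done to it.

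The hippocampus stores new episodic and spatial memories, and its dentate gyrus keeps a niche in which stem cells divide and give rise to new granule neurons. Production of these neurons, marked by cell cycle genes and by doublecortin, declines as a rodent ages. Microglia, the resident immune cells, and astrocytes shift toward a more reactive state, myelin is remodeled, and neurons switch immediate early genes on and off within minutes to hours of activity.

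Interval and array slide coincided. The 2wk arrays lay on 1 slide scanned on 1 day, the 6mo arrays on another and the 1yr arrays on another, the last of these scanned on the same day as the 6mo slide. Time and slide cannot be told apart in any difference between intervals given here. At 6mo the naive arrays shared their slide with the 4 sham arrays of that interval, while the sham arrays of 2wk and 1yr lay on slides of their own but were scanned on the days of their naive counterparts. All signals are given relative to the 75th percentile of their array, on a linear scale, and differences are given in log2 units. A probe was called at an adjusted p under 0.05 (limma, Benjamini-Hochberg over all tested probes), and entered the test if all 4 arrays of 1 or more of the compared groups were well above background. The share of probes well above background was 53.9% to 58.0% at 2wk, 41.2% to 72.4% at 6mo and 46.5% to 52.8% at 1yr.

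Markers of the hippocampus were present, with 14 of 16 well above background on all 12 arrays and Lct below background on all 12. Their summed signal was 75.4 to 108.5 at 2wk, 58.7 to 74.6 at 6mo and 82.4 to 91.1 at 1yr, against 30.1 to 41.9 in the naive cortex. Arrays of 1 interval correlated at 0.985 to 0.991 (2wk), 0.976 to 0.985 (6mo) and 0.984 to 0.989 (1yr). The correlation was 0.957 to 0.980 between 2wk and 6mo and 0.976 to 0.985 between 2wk and 1yr, so that the 6mo arrays lay farthest from the 2wk arrays. On the first principal component, 33.4% of the variance, the 6mo arrays had the highest scores and the 2wk arrays the lowest, and on the second, 13.6%, the 1yr arrays (10.9 to 39.7) lay above all other arrays except 6mo replicate 1 (12.2), which was above 1 of them.

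Several arrays stood apart in genes of other cells, and their values are given here and beside results in those genes. On 6mo replicate 3, 82 probes of 62 named genes were at least 4 times above each of the other 11 arrays, where the other arrays had 1 to 27 such probes. Its summed signal was 340.3 for microglia genes, 543.9 for antigen presentation and 382.1 for complement, against 116.1 to 143.7, 106.9 to 118.5 and 149.2 to 176.3 on the other 6mo arrays. On 1yr replicate 3 the choroid plexus, the tissue that secretes cerebrospinal fluid, had a summed signal of 583.1 against 6.91 to 16.3 on the other 1yr arrays. Most of it was Ttr, the transthyretin gene, which was not called between 1yr and 2wk (1.77 ± 1.36 log2, limma adjusted p = 0.45). Meningeal genes were high on that array (24.2 against 5.27 to 6.97) and on 2wk replicate 4 (22.5 against 8.33 to 8.86). Blood genes, led by the hemoglobins, summed to 187.7 to 245.9 at 2wk, 105.5 to 161.7 at 6mo and 107.0 to 141.0 at 1yr.

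**Figure D1:**
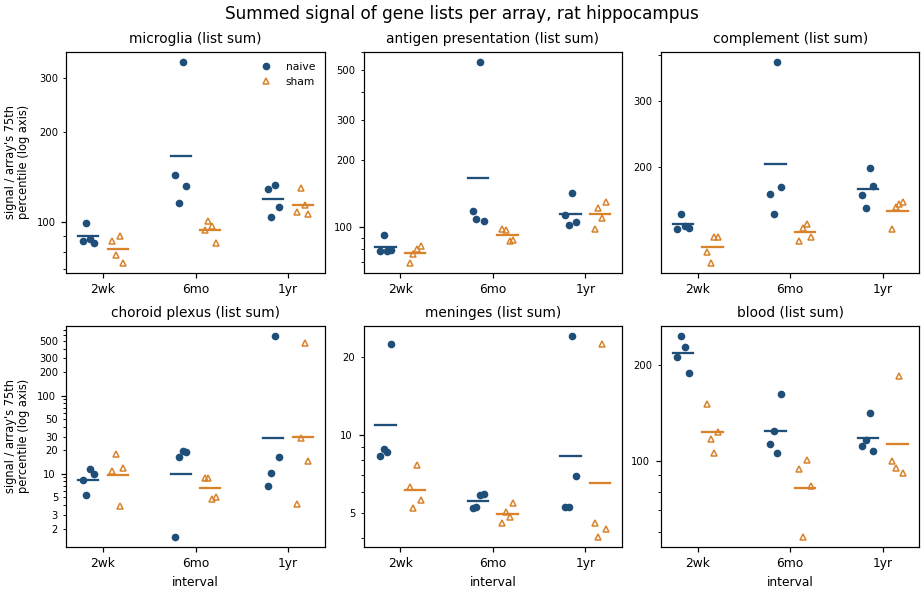
Summed signal of marker and gene lists on each hippocampal array, relative to the 75th percentile of the array (log axis), by interval in naive (circles) and sham (triangles) rats, each point 1 array and each bar the mean on the log scale. In naive rats 1 array at 6mo lies high for microglia, antigen presentation and complement (543.9 for antigen presentation), 1 array at 1yr for the choroid plexus (583.1), and the blood sum of every 2wk array (187.7 to 245.9) is above those of 6mo and 1yr.

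Between 2wk and 1yr a small part of the hippocampal transcriptome moved. Of 23682 tested probes, 705 (2.98%) were called, 400 higher and 305 lower at 1yr, and they named 394 genes. By a fold of 1.4 and an unadjusted p under 0.05 the count was 1809 (7.64%). With 1 probe a gene, 314 of 11041 named genes were called (2.84%), 195 higher (1.77%) and 119 lower (1.08%). Of the lists of genes examined, blood genes (6 of 8) and cell cycle genes (6 of 22) held the most lower calls. Myelin genes (4 of 29) held the most higher calls. All 6 of the cell cycle genes called and 2 of the 6 blood genes called entered the test only through the 2wk arrays. Of the called probes, 602 were above background on all 8 arrays (386 higher and 216 lower), and 98 only through the 2wk arrays, of which 89 were lower. The count rested on most of the single arrays. It was 130 without 2wk replicate 3, and without the other 2wk arrays it was 151 (replicate 1), 411 (replicate 2) and 253 (replicate 4). Without 1yr replicates 2, 3 and 4 it was 271, 186 and 201.

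Ctxn3, a membrane protein of the cortexin family, had the largest rise of the named genes. Its relative signal was 0.161, 0.134, 0.457 and 0.354 on the 2wk arrays, 0.839, 0.728, 0.577 and 0.653 at 6mo, and 0.946, 0.755, 1.24 and 1.5 at 1yr. Every 1yr array was above every 2wk array, which held for 11.3% of all named genes (the reverse for 6.52%), and the difference was 2.14 ± 0.36 log2 (SE, n = 4 against 4, limma adjusted p = 0.017). Without 2wk replicate 1 or 1yr replicate 3 the call was lost. Cdh23, a cadherin of the tip links of hair cells, had signals of 0.0556, 0.0527, 0.0458 and 0.0488 at 2wk and of 0.179, 0.180, 0.170 and 0.169 at 1yr. The 4 arrays of each interval lay close together and the difference was 1.79 ± 0.22 log2 (limma adjusted p = 0.0077). Its 6mo arrays, 0.0726 to 0.164, lay between both groups.

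Birc7, an inhibitor of apoptosis also known as livin, had signals of 0.165, 0.141, 0.194 and 0.173 at 2wk, 0.432, 0.649, 0.402 and 0.466 at 6mo, and 0.475, 0.436, 0.614 and 0.560 at 1yr. The rise of 1.63 ± 0.16 log2 by 1yr (limma adjusted p = 0.0025) stood at 1.52 log2 by 6mo, with no overlap between the 2wk arrays and any later array. Aadat, the kynurenine aminotransferase that makes kynurenic acid, had signals of 0.989, 1.18, 0.979 and 1.28 at 2wk, 2.49, 2.67, 2.22 and 2.23 at 6mo, and 2.86, 2.26, 2.5 and 2.64 at 1yr. It rose by 1.21 ± 0.11 log2 (limma adjusted p = 0.0022), again with most of the rise present at 6mo (1.12 log2). Pbld1 followed the same course, from 0.744 to 0.928 at 2wk to 1.82 to 3.15 at 6mo and 2.16 to 2.77 at 1yr (1.5 ± 0.16 log2 at 1yr, limma adjusted p = 0.0025).

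The other genes with the largest rises were Cfap97 (1.90 log2), Serpina1, the protease inhibitor alpha-1 antitrypsin (1.54 log2), Loxl4, a lysyl oxidase that crosslinks collagen (1.49 log2), Mtarc1, a mitochondrial reductase (1.4 log2), and Sema3b, a secreted semaphorin (1.26 log2). Sema3b differed from the others in its timing. Its 6mo arrays, 0.446 to 0.660, overlapped the 2wk arrays, 0.280 to 0.496, and the 1yr arrays, 0.843 to 0.954, lay above both. Calls for Cfap97, Loxl4 and Mtarc1 were lost without 1 or more of the single arrays, and those for Serpina1, Sema3b, Cdh23, Birc7, Aadat and Pbld1 held without each of the 12.

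**Figure D2:**
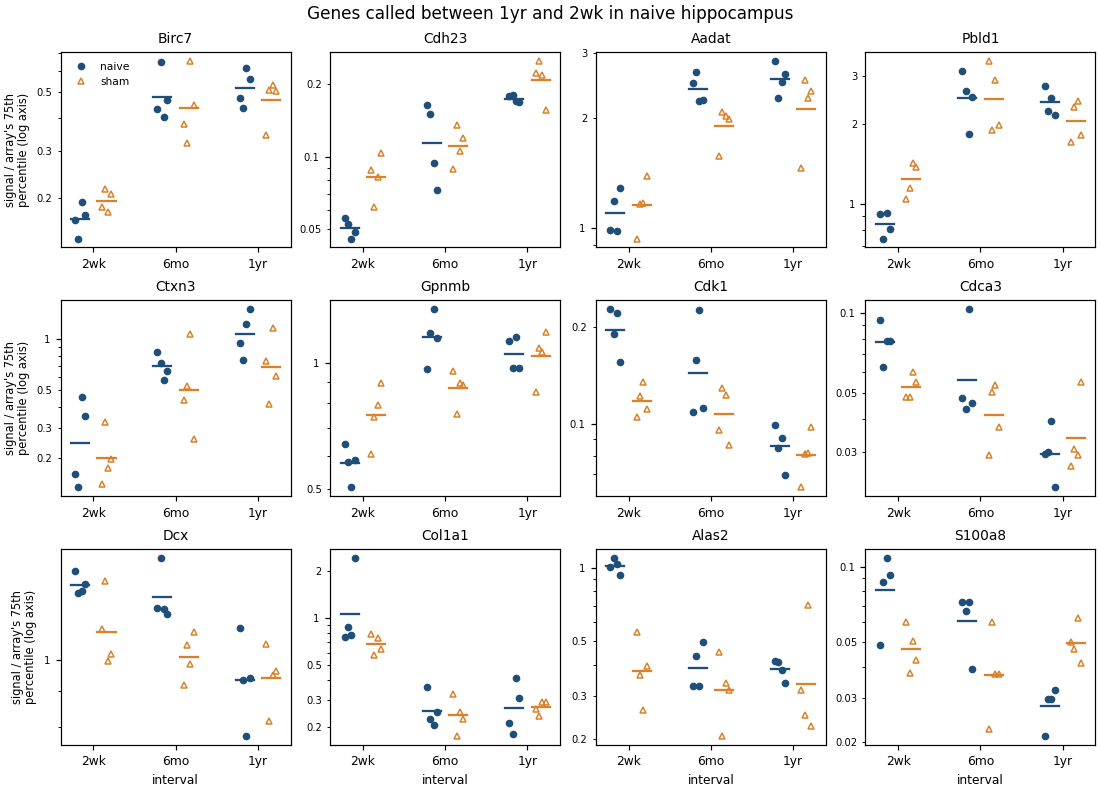
Relative signal (log axis) of genes with large differences between 2wk and 1yr, by interval, each point 1 array of naive (circles) or sham (triangles) hippocampus and each bar the mean on the log scale. In naive rats the 1yr arrays of Ctxn3, Cdh23, Birc7 and Aadat lie above every 2wk array and those of Cdk1, Alas2 and S100a8 below, while the sham arrays of Alas2 and S100a8 overlap between 2wk and 1yr. Cdk1 and S100a8 entered the test only through the 2wk arrays.

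Blood genes fell between 2wk and 1yr. Of 9 on the array, 8 were tested and 6 were called lower, with a median of -0.91 log2 against 0.05 over all named genes. Over all named genes 1.08% were called lower. Of the 6 blood genes above background at both intervals 4 were called lower, with a median of -0.89 log2. Alas2, the first enzyme of heme synthesis in red cells, had signals of 1.01, 1.1, 1.04 and 0.934 at 2wk, 0.328, 0.434, 0.328 and 0.496 at 6mo, and 0.416, 0.411, 0.381 and 0.339 at 1yr. It fell by 1.4 on the log2 scale (limma adjusted p = 0.0024), with both later groups below every 2wk array. Hbb fell by 0.91 and Hba-a2 by 0.87 on the log2 scale, and both are hemoglobin chains with near-identical copies, so that the probe may read more than 1 of them. Slc4a1, the anion exchanger of red cells, fell from 0.108 to 0.233 at 2wk to 0.0181 to 0.0540 at 1yr, where it was well above background on 1 of 4 arrays. S100a8, a calcium-binding protein of neutrophils, was below background on all 4 of the 1yr arrays and so was at least 1.24-fold higher at 2wk (limma adjusted p = 0.018). Slc4a1 and S100a8 entered the test only through the 2wk arrays, so that a lower value at 1yr was built into their selection. The call of Slc4a1 was lost without 4 of the 12 single arrays and that of S100a8 without 2wk replicate 3. In sham rats the summed signal of the list was 106.1 to 150.4 at 2wk and 91.7 to 183.7 at 1yr. The value of 183.7 was on sham 1yr replicate 3, on which choroid plexus (470.2) and meninges (22.5) were high as well, and the other 3 of the 1yr arrays (91.7 to 99.9) lay below every sham 2wk array. None of its genes was called in sham rats, and the median was -0.10 log2. The test of the difference between naive and sham rats called 0 of 25454 probes, and so no blood gene. The 1yr against 2wk difference was higher in sham than in naive rats for all 8 tested blood genes, by a median of 0.79 log2. In bulk tissue fewer cells of a type and less RNA per cell cannot be told apart.

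Of the collagen and matrix genes 2 were called lower and none higher, where 1.08% of all named genes were called lower. Col1a1, a chain of fibrillar collagen, had signals of 0.756, 0.880, 0.775 and 2.43 at 2wk and of 0.212, 0.180, 0.415 and 0.308 at 1yr. It fell by 2.00 on the log2 scale (limma adjusted p = 0.024), and by 1.60 without 2wk replicate 4, the array on which meningeal genes were high. The call was lost without 2wk replicate 3, 1yr replicate 2 or 1yr replicate 4. Col4a1, a chain of the basement membrane of vessels, fell by 0.58 on the log2 scale, from 0.992 to 1.30 to 0.684 to 0.798. The list had 33 tested genes, and the part of meningeal tissue in its 2 calls was not tested. Other large falls were Alox15, a lipoxygenase, by 2.19 on the log2 scale, Casr, the calcium-sensing receptor, by 2.03, Ceacam4 by 1.77, and Pnlip, pancreatic lipase, by 1.70. The call of Alox15 was lost without 9 of the 12 single arrays and that of Ceacam4 without 4, while those of Casr and Pnlip held without each. Casr and Alox15 were well above background on only 1 of the 1yr arrays and Ceacam4 on 2. Pnlip was above background on every array, with 0.323 to 0.609 at 2wk, 0.200 to 0.314 at 6mo and 0.124 to 0.208 at 1yr.

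Genes of the cell cycle were near the detection limit of the arrays. Over all named genes 1.08% were called lower at 1yr. Of 28 on the array, 22 were tested and 6 were called lower, namely Cdk1, Ccna2, Ccnb2, Kif11, Nusap1 and Cdca3. All 6 entered the test only through the 2wk arrays, so a lower value at 1yr was built into their selection. Of the 9 members above background at both intervals none was called, and their median was -0.05 log2. In the naive cortex 6 of 17 tested members were called lower and none higher (median -0.50 log2), where 4.5% of all probes were called. These cortical members were not split by detection at both intervals. Cdk1, the kinase that drives entry into mitosis, had signals of 0.227, 0.190, 0.221 and 0.156 at 2wk, 0.109, 0.158, 0.226 and 0.112 at 6mo, and 0.0998, 0.0847, 0.0907 and 0.0697 at 1yr. All 4 of the 1yr arrays were below all 2wk arrays, and the fall was 1.20 on the log2 scale (limma adjusted p = 0.023). Ccna2 (cyclin A2) fell by 0.91, Kif11, the spindle motor Eg5, by 0.96, Nusap1, a spindle protein, by 0.84 and Ccnb2 (cyclin B2) by 0.81 on the log2 scale. Cdca3 and Kif18b, a mitotic kinesin, were below background on every 1yr array and were at least 1.19-fold and 1.06-fold higher at 2wk. The call of Cdca3 was lost without 5 of the 12 single arrays and that of Kif18b without 7. Mki67, the gene of the proliferation antigen Ki-67, was not tested, since it was well above background on 3 of 4 arrays at 2wk. Its signals were 0.0611, 0.0543, 0.0489 and 0.0467 at 2wk and 0.0209, 0.0181, 0.0193 and 0.0204 at 1yr, where it was below background on all 4. The 6mo arrays of Mki67 and Cdca3 were low except on replicate 3, at 0.124 and 0.103.

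Genes of cell division are known for promoters with a CCAAT box, bound by the factor NF-Y, and a cell cycle gene homology region (CHR). The 250 bases before the start of 3 of the lower genes are shown in lower case, from RefSeq (GRCr8), with matches to CCAAT (either strand, so CCAAT or ATTGG) and to the CHR letters TTTGAA in capitals, and the 2 motifs do not overlap in them. Cdk1 lies at chr20:19265043-19265292 on the plus strand, Ccnb2 at chr8:79981659-79981908 on the minus strand, and Cdca3 at chr4:159320953-159321202 on the plus strand.
Cdk1: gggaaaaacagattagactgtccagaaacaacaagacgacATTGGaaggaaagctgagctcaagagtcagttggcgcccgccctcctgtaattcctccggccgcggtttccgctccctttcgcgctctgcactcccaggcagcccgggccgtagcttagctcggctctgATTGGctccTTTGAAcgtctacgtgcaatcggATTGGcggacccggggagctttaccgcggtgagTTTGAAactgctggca
Ccnb2: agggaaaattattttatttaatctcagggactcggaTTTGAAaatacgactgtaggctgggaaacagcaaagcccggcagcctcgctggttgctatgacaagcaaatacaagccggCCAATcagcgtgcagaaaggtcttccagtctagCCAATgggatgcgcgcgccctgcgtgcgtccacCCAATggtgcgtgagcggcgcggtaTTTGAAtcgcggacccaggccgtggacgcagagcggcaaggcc
Cdca3: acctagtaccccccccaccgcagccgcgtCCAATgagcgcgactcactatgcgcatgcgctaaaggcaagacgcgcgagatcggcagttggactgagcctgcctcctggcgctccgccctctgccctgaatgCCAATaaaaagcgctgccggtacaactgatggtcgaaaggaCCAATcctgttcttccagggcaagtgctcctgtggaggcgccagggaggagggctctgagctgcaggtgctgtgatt
The stretch holds 2 CHR and 3 CCAAT matches in Cdk1 and in Ccnb2, and 3 CCAAT matches and no CHR in Cdca3. A promoter was found for 5 of the 6 lower genes, of which 5 had a CCAAT match and 2 a CHR match. Over the 22 cell cycle genes on the array with a promoter the shares were 72.7% and 36.4%, and over all 27457 promoters 34.3% and 16%.

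The neurogenic lineage moved in few members. Of 25 tested genes 1 rose and 1 fell, where 1.77% of all named genes were called higher and 1.08% lower. Sox2, a transcription factor of neural stem cells that astrocytes also express, had signals of 4.30, 6.58, 5.41 and 4.10 at 2wk and of 8.88, 9.22, 8.73 and 7.93 at 1yr, a rise of 0.79 ± 0.15 log2 (limma adjusted p = 0.023). Dcx, the microtubule protein of newborn neurons, had signals of 1.34, 1.25, 1.25 and 1.28 at 2wk, 1.19, 1.4, 1.18 and 1.16 at 6mo, and 1.11, 0.935, 0.776 and 0.940 at 1yr. No 1yr array reached the lowest 2wk array, and the fall was 0.46 on the log2 scale (limma adjusted p = 0.046). The call of Dcx stood at the threshold and was lost without any 1 of the 2wk arrays, without 1yr replicates 2, 3 or 4 and without 6mo replicates 1, 3 or 4. Sox11, an early neuronal factor, had 0.115 to 0.168 at 2wk and 0.0788 to 0.126 at 1yr and was not called. The median of the list was -0.04 log2 in the hippocampus. In the naive cortex it was -0.25 log2, with 6 of 24 tested genes called lower and none higher, where 4.5% of all probes were called.

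A few glial genes rose, where 1.77% of all named genes were called higher and 1.08% lower. In the list of myelin and mature oligodendrocytes 4 of 29 tested genes rose and none fell, 17 of the 29 had a higher mean at 1yr, and the median was 0.14 log2. In sham rats 3 of 28 rose and 4 fell, with a median of -0.11 log2, where 7.93% of all named genes were called higher and 5.44% lower. Of 19 oligodendrocyte precursor genes none was called (median -0.04 log2). Plekhb1 had signals of 36.9, 39.9, 36.8 and 38.4 at 2wk and of 59.1, 58.9, 59.4 and 59.7 at 1yr, among the tightest groups of all (0.64 ± 0.13 log2, limma adjusted p = 0.032). Cryab, the small heat shock protein alpha-B crystallin, rose by 0.73 log2, Bcas1, a gene of newly myelinating oligodendrocytes, by 0.69 log2, and Evi2a by 0.65 log2. Mbp, the major myelin protein, had 272 to 343 at 2wk and 308 to 370 at 1yr, which overlapped. In the list of astrocyte genes 2 of 28 rose. These were Agt, angiotensinogen, from 20.4 to 28.5 at 2wk to 34.6 to 36.9 at 1yr (0.54 log2), and S100b, a calcium-binding protein, from 90.8 to 98.5 to 114 to 126 (0.37 log2). Gfap, the intermediate filament of astrocytes, spread from 4.17 to 14.0 at 2wk and from 4.49 to 14.7 at 1yr and gave no direction. With the median of all probes as scaling none of these calls in the myelin list was kept.

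Immune genes lay higher at 1yr in level but were seldom called. The medians were 0.32 log2 over 28 microglia genes, 0.52 over 26 antigen presentation genes, 0.41 over 20 complement genes and 0.27 over 28 interferon response genes, against 0.05 over all named genes, and 1 of these genes was called. This was Gpnmb, a glycoprotein of lipid-laden phagocytes, with signals of 0.640, 0.579, 0.506 and 0.588 at 2wk, 0.965, 1.18, 1.34 and 1.14 at 6mo and 1.13, 0.970, 1.15 and 0.970 at 1yr (0.87 ± 0.11 log2, limma adjusted p = 0.010). C4a, another complement component, had 0.198 to 0.315 at 2wk and 0.254 to 0.451 at 1yr, which overlap, and the difference was not called (0.51 ± 0.92 log2, limma adjusted p = 0.77). C3, the central complement component, had 0.571 to 1.43 at 2wk and 2.27 to 3.87 at 1yr. These groups did not overlap, and over all named genes 11.3% were higher at 1yr with no overlap, but it was not called in the fit over all 3 intervals, where 6mo replicate 3 was at 40.8 (1.79 ± 0.78 log2, limma adjusted p = 0.19, and 0.012 without that array). Without that array 5 microglia genes and 3 antigen presentation genes were called higher. Cd74, the class II invariant chain, had 0.475 to 2.61 at 2wk and 0.758 to 6.57 at 1yr, which overlapped. In sham rats 15 microglia genes, 15 antigen presentation genes, 8 complement genes and 9 interferon response genes rose between 2wk and 1yr. There 13.4% of all named genes were called, 7.93% higher and 5.44% lower, and the medians were 0.43 log2 for microglia and 0.59 log2 for antigen presentation. The test of sham against naive rats called 0 of 25454 probes, and so no immune gene.

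Few neuronal, metabolic and regulatory genes were called between 2wk and 1yr, where 1.77% of all named genes were called higher and 1.08% lower. None of 70 tested genes of the mitochondrial respiratory chain was called, but 65 had a higher mean at 1yr, with a median of 0.15 log2, and in sham rats 28 of 71 were called higher, where 7.93% of all named genes were. Of 24 glucocorticoid response genes 20 had a higher mean (median 0.27 log2) and 1 was called. Of 31 immediate early genes 23 had a lower mean (median -0.25 log2), but 7 of the 31 entered the test only through the 2wk arrays. Of the 24 above background at both intervals 16 had a lower mean (median -0.08 log2). Of the synaptic genes 1 of 47, Grm7, a presynaptic glutamate receptor, fell by 0.56 on the log2 scale. Of the immediate early genes Ptgs2, cyclooxygenase 2, and Egr1, a zinc finger factor induced by activity, fell by 1.17 and 0.93 on the log2 scale and Gadd45b, a stress-induced gene, rose by 0.75 log2. Of the 2 called lower, 1 was above background at both intervals and the other entered only through the 2wk arrays. In the circadian clock Dbp, an output gene, rose by 0.49 log2, from 18.4 to 24.0 to 29.1 to 32.4, and Bmal1, its activator, fell by 0.41 on the log2 scale, from 1.41 to 1.51 to 0.945 to 1.20. In sham rats both were level (0.05 and 0.00 log2). Plin4, a lipid droplet protein, rose by 0.93 log2, Fgfr2, a fibroblast growth factor receptor, by 0.75 log2 and Tgfb2, a secreted growth factor, by 0.50 log2. Wfs1, an endoplasmic reticulum protein that marks CA1 pyramidal cells, fell by 0.58 and Dnajb5, a co-chaperone, by 0.61 on the log2 scale. Ntrk2, the receptor of brain-derived neurotrophic factor, rose by 0.39 log2 on its brightest probe while its probes ranged from -0.15 to 0.40. Bdnf itself (0.468 to 0.803 at 2wk, 0.445 to 0.663 at 1yr), Arc and the glucocorticoid receptor gene Nr3c1 were not called.

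**Figure D3:**
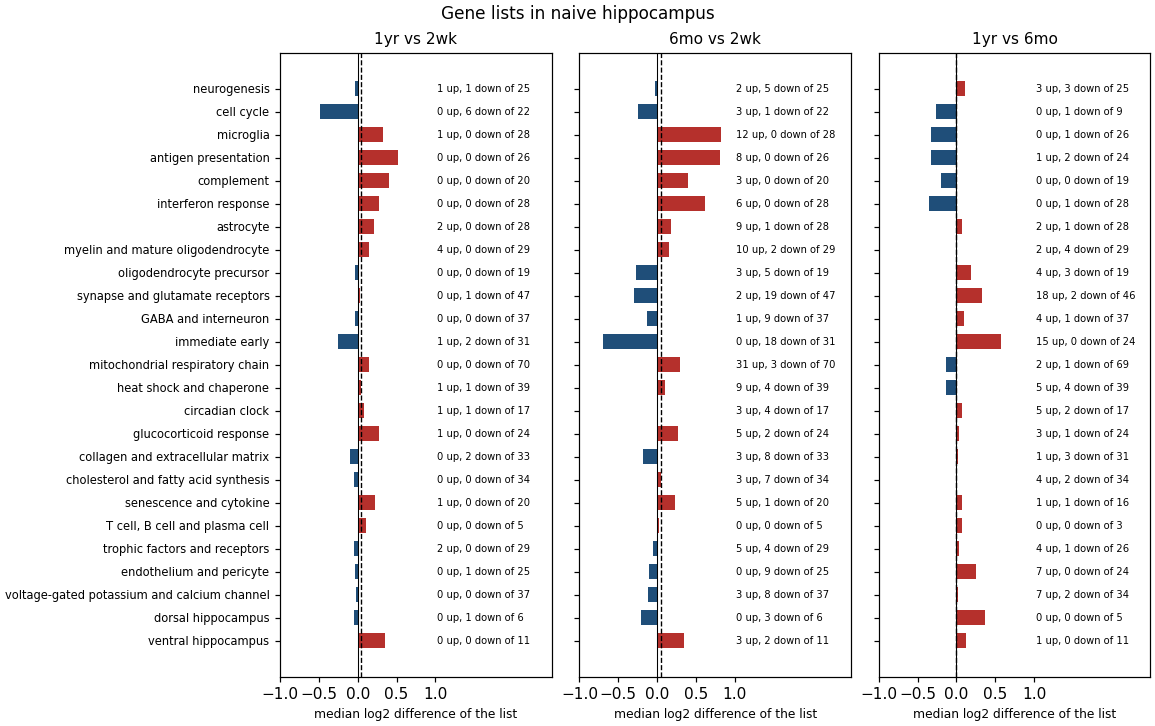
Median log2 difference of the tested genes of each list, marker lists of other tissues left out, in the 3 comparisons of naive hippocampus (bars, with the median of all named genes as a dashed line) and the number of genes called higher and lower of those tested. Of the lists drawn, at 1yr against 2wk the cell cycle list lies lowest (-0.49) and antigen presentation highest (0.52), and at 6mo the immediate early list lies lowest (-0.70), with 18 of 31 genes lower. At 1yr against 2wk 13 of the 22 tested cell cycle genes entered only through the 2wk arrays. The 9 above background at both intervals have a median of -0.05.

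The 1yr difference was set beside that of sham rats, whose hippocampi were other samples on other slides at both intervals. Sham rats gave 3801 calls of 25263 probes (15.0%). Of the 705 probes called in naive rats 689 were tested in sham rats, and 670 of them (97.2%) had the same sign there, against 77.3% of all 23491 probes tested in both. In sham rats 345 were called in the same direction, which is 50.1% of the naive calls and 9.30% of the sham calls, and 0 in the opposite direction. Over the 689 probes the log2 differences correlated at 0.89, across probes that are not independent replicates. The test of the difference between sham and naive rats called 0 of 25454 probes (920 at an unadjusted p under 0.05 in limma). In sham rats named genes differed by amounts from near 0 to close to those of naive rats. Ctxn3 rose by 1.79 log2 in sham rats, Cdh23 by 1.34, Birc7 by 1.25, Sema3b by 1.14 and Aadat by 0.87 log2, each called, and Casr fell by 1.28, Col1a1 by 1.34 and Pnlip by 0.99 on the log2 scale. Not called in sham rats were Cfap97 (0.41 log2), Loxl4 (0.57), Mtarc1 (0.50), Sox2 (0.07), Dcx (-0.22), Egr1 (0.01), Alas2 (-0.18) and S100a8 (0.07). Sham slides of 2wk and 1yr were scanned on the same days as the naive slides, so that scan day still coincides with the interval.

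**Figure D4:**
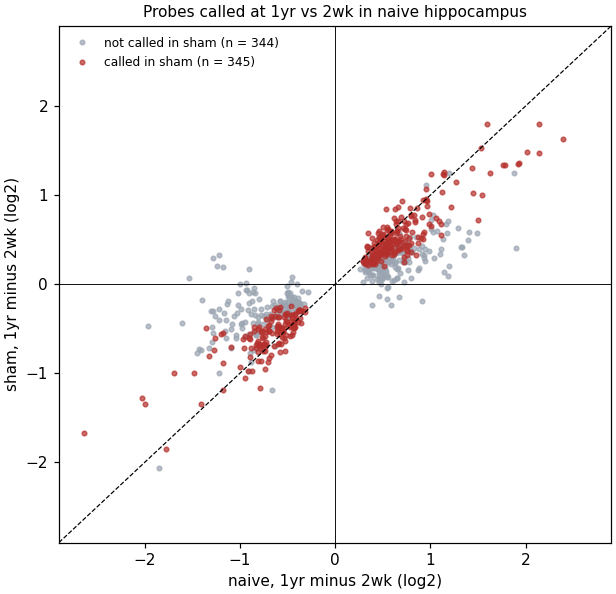
Log2 difference between 1yr and 2wk in naive hippocampus (x axis) and sham hippocampus (y axis) for the 689 probes called in naive rats and tested in sham rats, each point 1 probe. Of these, 670 have the same sign on both axes, and the correlation across probes is 0.89.

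The naive cortex of the same intervals gave 1050 calls of 23359 probes between 2wk and 1yr (4.5%). Of the hippocampal calls 672 were tested in the cortex and 502 (74.7%) had the same sign, against 60.1% of all 22646 probes tested in both. The paper states that hippocampus and cortex of 4 naive rats were analysed at each interval. The deposited names give the cortical and hippocampal samples the same animal numbers, so that both tissues probably came from the same rats. Between tissues, deviations from the group mean correlated over 0.1 in 7 of 12 pairs of the same number and interval (median 0.24). The test of the difference between tissues called 107 of 24395 probes (0.439%), of 44 named genes. With the rat as a block it called 35. The values of genes given below are from the fit without this block, which treats the tissues of a rat as independent. Ctxn3 was among the 107 calls of that fit, and whether it stayed called with the block was not checked. It rose in the hippocampus and was level in the cortex, with 1.68 to 2.06 at 2wk and 1.27 to 2.81 at 1yr, and the difference between tissues was 2.29 ± 0.47 log2 (limma adjusted p = 0.037). Ccnd2, a cyclin needed for adult neurogenesis, had a difference of 1.28 log2, with 0.53 in the hippocampus and -0.75 in the cortex. Efnb1, an ephrin ligand, fell by 1.28 on the log2 scale in the hippocampus, where 1 of the 1yr arrays was above background, while its cortical difference was 1.12 log2. The largest called differences of named genes, of Iqcg (3.14 log2) and Cfap206 (2.88 log2), both genes of motile cilia, came from the cortex (-2.63 and -2.76 log2), with hippocampal values of 0.51 and 0.12 log2 that were not called. The count rested on single arrays, and was 0 without 2wk replicate 1 or 1yr replicate 1 of the naive hippocampus and 599 without 2wk replicate 4 of the naive cortex.

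A straight line over time fitted few genes. The slope over 2wk, 6mo and 1yr was called for 74 of 23702 probes (0.312%), 43 rising and 31 falling, and 48 named genes were among them. With a single 2wk or 1yr array left out the count was 3 to 12, and with a single 6mo array left out 77 to 143. Rising were Ctxn3 by 0.18 log2 a month, Cdh23 by 0.15, Birc7 by 0.14, Serpina1 by 0.13, Sema3b by 0.11 and Aadat by 0.10. Falling were Slc4a1 by 0.21 on the log2 scale a month, Casr by 0.17, Cdk1 by 0.10 and Ccna2 by 0.08. None of these falling genes was well above background on every 1yr array, so that a lower value at 1yr was built into their selection. Beside them stood Mgst1, a glutathione transferase of membranes (1.12 log2 at 1yr), Gchfr, the feedback regulator of GTP cyclohydrolase (1.12 log2), Plvap, a protein of fenestrated endothelium (1.03 log2), Capn6, a calpain without protease activity (fell by 1.27), and Cd93, a receptor of endothelium and myeloid cells (fell by 1.06 on the log2 scale). Of the 705 probes called between 2wk and 1yr, 232 that rose and 198 that fell had the 6mo mean between the other means, 138 and 84 had it beyond the 1yr mean, and 30 and 23 had it on the far side of the 2wk mean. The trend was fitted with time in months, and with log2 of weeks, which puts 6mo nearer to 1yr, 447 probes were called.

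The 6mo group stood farther from 2wk than the 1yr group did. Of 23675 tested probes 7840 (33.1%) were called between 6mo and 2wk, 4273 higher and 3567 lower, and of 20758 probes 4463 (21.5%) were called between 1yr and 6mo. By fold and unadjusted p the shares were 21.6% and 12.8%. Of named genes 31.6% were called between 6mo and 2wk (16.9% higher, 14.6% lower) and 20.2% between 1yr and 6mo (12.2% higher, 8.03% lower). Both comparisons share the 6mo arrays. Of 20731 probes tested in both, 3185 were called in both, and in 3174 of these the 6mo group was apart from both other groups, 1377 with 6mo highest and 1797 with 6mo lowest. With the median of all probes as scaling the counts were 2334 and 1443, and the share of higher calls went from 54.5% to 17.3% at 6mo against 2wk and from 54.0% to 93.2% at 1yr against 6mo. With the share of probes well above background as a covariate they were 7604 and 4032.

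Immediate early genes were low at 6mo. Of 31 tested genes 18 were called lower and none higher, where 14.6% of all named genes were called lower. Of the 22 above background at both intervals, all had a lower mean at 6mo and 12 were called. Egr1 had signals of 0.998, 0.841, 0.818 and 1.03 at 2wk, 0.150, 0.184, 0.161 and 0.113 at 6mo, and 0.383, 0.670, 0.340 and 0.608 at 1yr. The 3 groups did not overlap, and Egr1 fell by 2.62 on the log2 scale from 2wk to 6mo (limma adjusted p = 0.00011) and was 1.68 log2 higher at 1yr than at 6mo. Klf2, a flow- and activity-regulated zinc finger factor, went from 1.02 to 1.63 at 2wk to 0.259 to 0.472 at 6mo and back to 0.831 to 1.56 at 1yr. It fell by 1.78 on the log2 scale to 6mo. Fos, a subunit of AP-1, fell by 1.33, Junb, another AP-1 subunit, by 1.11, Gadd45g by 1.09, Egr4 by 1.08 and Nr4a1, an orphan nuclear receptor, by 0.70 on the log2 scale. Between 6mo and 1yr 15 of 24 tested genes of the list rose and none fell, where 12.2% of all named genes rose and 8.03% fell.

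Fewer genes of the list were called lower in sham rats, 5 of 25 tested between 2wk and 6mo, and 3 were called higher, with a median of -0.13 log2 against -0.70 log2 in naive rats. Of all named genes 10.2% were called lower in sham rats. Egr1 in sham rats was 0.539, 0.764, 0.401 and 0.516 at 2wk, 0.610, 0.528, 0.353 and 0.437 at 6mo, and 0.580, 0.584, 0.610 and 0.423 at 1yr. Every naive 6mo array lay below every sham array, and naive rats were lower than sham rats on the shared slide by 1.66 on the log2 scale (difference -1.66, limma adjusted p = 0.0082). The change from 2wk to 6mo differed between sham and naive rats for 9 of 31 immediate early genes, all less negative in sham rats, including Egr1 (limma adjusted p = 3.5e-05), Junb (0.00011), Gadd45g (0.00034) and Klf2 (0.0019), and for 17.5% of all probes (4159 of 23800). Set against the mean of 2wk and 1yr instead, the 6mo difference was called as unlike in sham and naive rats for 25.4% (6477 of 25458). For Fos this difference was not called (limma adjusted p = 0.11). On the shared slide 2567 of 20982 probes (12.2%) were called between naive and sham rats, of which 5 were immediate early genes, all lower in naive rats.

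Immediate early genes are known for 2 promoter elements, the CArG box bound by serum response factor and the cyclic AMP response element TGACGTCA. The 250 bases before the start of Egr1, the gene with the largest difference of the list, are shown from RefSeq (GRCr8, chr18:26736828-26737077, plus strand) with CArG matches in capitals.
Egr1: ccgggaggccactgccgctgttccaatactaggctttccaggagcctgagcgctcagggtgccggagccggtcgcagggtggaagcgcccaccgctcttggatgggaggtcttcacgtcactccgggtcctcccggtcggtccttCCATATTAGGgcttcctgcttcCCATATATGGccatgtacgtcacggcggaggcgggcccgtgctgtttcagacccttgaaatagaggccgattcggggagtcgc
It holds 2 CArG matches and no full cyclic AMP response element. Of the 15 lower genes with a promoter, 2 (13.3%) had a CArG match and 3 (20%) a cyclic AMP response element, on either strand. Over the 24 immediate early genes on the array with a promoter the shares were 12.5% and 16.7%, near those of the lower genes. Over all 27457 promoters of this length they were 1.5% and 1.70%.

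Synaptic genes were also low at 6mo. Of 47 tested, 19 were called lower and 2 higher, where 14.6% of all named genes were lower and 16.9% higher. Between 6mo and 1yr 18 of 46 rose and 2 fell, where 12.2% of all rose and 8.03% fell. Syp, the vesicle protein synaptophysin, had signals of 6.12, 4.05, 4.97 and 5.14 at 2wk, 0.951, 1.85, 1.07 and 1.26 at 6mo, and 3.54, 2.94, 2.72 and 3.51 at 1yr. It fell by 2.02 on the log2 scale to 6mo (limma adjusted p = 0.00015), with no overlap between any 2 intervals. Slc17a7, the vesicular glutamate transporter of excitatory terminals, went from 2.64 to 3.74 at 2wk to 0.825 to 1.28 at 6mo and fell by 1.52 on the log2 scale. Grin2b, an NMDA receptor subunit, fell by 1.51, Rims1, an active zone scaffold, by 1.01, Cplx1, a fusion clamp, by 0.76, Syn1, a vesicle phosphoprotein, by 0.74, and Snap25, a SNARE protein, by 0.46 on the log2 scale. Nrxn3, a presynaptic adhesion protein, rose by 0.50 on the log2 scale. In sham rats Syp fell by 0.93 and Slc17a7 by 0.57 on the log2 scale over the same time, less than in naive rats (limma adjusted p of the difference 0.0055 and 0.0036), and the median of the list was 0.05 log2 in sham rats against -0.29 in naive rats. Among potassium and calcium channels the calls, 8 of 37 lower and 3 higher, were near the share over all named genes, and the largest falls were of the P/Q-type subunit Cacna1a (fell by 1.82), the pacemaker channel Hcn2 (fell by 1.32) and the T-type subunit Cacna1g (fell by 1.00 on the log2 scale). Of 15 tested genes of hippocampal identity 6 were lower, among them Wfs1 (fell by 0.88) and Neurod2 (fell by 0.80 on the log2 scale).

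Endothelial genes were lower at 6mo, with 9 of 25 called lower and none higher (14.6% of all named genes were lower), and 7 of 24 were higher at 1yr than at 6mo (12.2% of all). Cldn5, the tight junction protein of the blood-brain barrier, had signals of 8.98, 9.47, 9.10 and 10.1 at 2wk, 5.25, 5.11, 4.19 and 4.99 at 6mo, and 9.24, 8.61, 9.22 and 9.98 at 1yr. The 6mo arrays lay apart from both other groups, and the fall was 0.95 on the log2 scale (limma adjusted p = 0.00014) against a difference of -0.16 log2 in sham rats, where all 12 arrays lay between 6.32 and 8.32. Over the list the medians were -0.10 log2 in naive rats and -0.16 log2 in sham rats. In sham rats 6 of 24 genes were called lower and 1 higher, where 10.2% of all named genes were lower and 18.1% higher. Tie1 and Eng, receptors of endothelium, fell by 1.19 and 0.86 on the log2 scale. Hes5, a Notch target of progenitors and glia, went from 0.990 to 1.54 at 2wk to 0.388 to 0.543 at 6mo and 0.970 to 1.28 at 1yr and fell by 1.42 on the log2 scale to 6mo. Tbr1, a factor of excitatory neurons, fell by 1.93, Bcl2l1, the survival protein Bcl-xL, by 1.77, and Fbxl16, an F-box protein, by 2.20 on the log2 scale. Rpl30l3, a ribosomal protein copy, had the lowest 6mo values against both other groups, 0.369 to 0.431, but 2wk replicate 3 was as low (0.223) while the other 2wk arrays were at 4.13 to 4.17. Its probe may read near-identical copies, and its call was lost without 10 of the 12 single arrays.

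**Figure D5:**
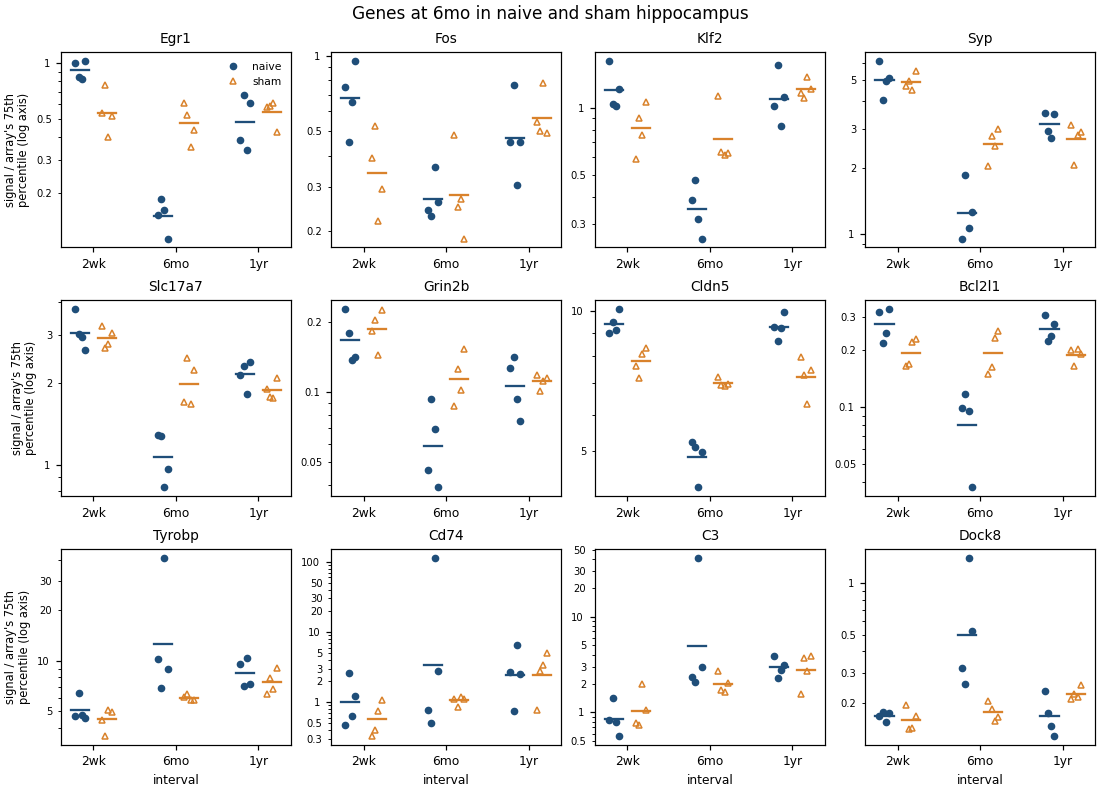
Relative signal (log axis) of 12 genes in naive and sham hippocampus by interval, each point 1 array and each bar the mean on the log scale. In naive rats Egr1, Syp and Cldn5 are low on all 4 of the 6mo arrays and the sham arrays of the same slide are higher, while Cd74 and C3 at 6mo rest on 1 high array (113 and 40.8).

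Genes of microglia and of the respiratory chain were high at 6mo. Of 28 microglia genes 12 were called higher and none lower, with a median of 0.82 log2, where 16.9% of all named genes were called higher, and without replicate 3, the array with the high immune genes, 11 were called higher and 1 lower with a median of 0.41 log2. In sham rats 3 of 26 were called higher and none lower, with a median of 0.05 log2, where 18.1% of all named genes were called higher. The change differed between sham and naive rats for 3 of 28, all lower in sham rats, where 17.5% of all probes were called in this test. Tyrobp, a signaling adapter of microglia, had 4.72, 6.45, 4.79 and 4.58 at 2wk and 10.2, 6.91, 40.9 and 8.88 at 6mo. The other 3 arrays also lay above all 2wk arrays, and the difference was 1.32 ± 0.44 log2 (limma adjusted p = 0.039), and 0.75 ± 0.19 log2 without replicate 3 (limma adjusted p = 0.015). Lgals3, a lectin of activated phagocytes, rose by 1.45 log2 (1.16 without replicate 3), Trem2, a lipid receptor of microglia, by 1.22 log2 (0.92) and Ctss, a lysosomal protease, by 1.04 log2 (0.70), each still called without that array. Of antigen presentation genes 8 of 26 rose, and without replicate 3 the count was 8 and the median went from 0.81 to 0.29 log2. In sham rats 6 of 24 rose and none fell, with a median of 0.28 log2. RT1-A1, a class I gene of a family with similar copies, had 2.81 to 4.88 at 2wk and 10.9, 9.53, 53.8 and 5.63 at 6mo (1.78 log2, and 1.11 without replicate 3). Dock8, an exchange factor of immune cells, Il18, a cytokine, and Tlr4, the endotoxin receptor, were higher at 6mo than at both other intervals, by 1.57, 1.37 and 1.85 log2 over 2wk, each with every 6mo array above every 2wk array, and by 1.07, 0.97 and 1.58 log2 without replicate 3. The call against 1yr was lost without 1yr replicate 4 or 6mo replicate 4 for Dock8, without 1yr replicate 4 for Il18 and without 6mo replicate 4 for Tlr4. Tlr4 entered the test only through the 6mo arrays and was well above background on 2 of 4 arrays at 2wk and at 1yr, so that a higher value at 6mo was built into its selection. Lat2, an adapter of myeloid and B cells, had 0.300, 0.531, 1.82 and 1.04 at 6mo, overlapping its 2wk arrays (0.204 to 0.338), and its call was lost without replicate 3. In the respiratory chain 31 of 70 genes were called higher and 3 lower (16.9% and 14.6% of all named genes), among them Atp5pd of the ATP synthase (0.61 log2), Cox6c of cytochrome oxidase (0.49 log2) and Ndufv2 of complex I (0.46 log2), and in sham rats 40 of 69 were higher and 3 lower, where 18.1% and 10.2% of all named genes were. This count depended on the scaling, with 6 higher and 7 lower after quantile normalization and none of either kind with the median of all probes.

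The 6mo differences were set beside those of sham rats and of the cortex as well. Of 7496 naive calls tested in sham rats 74.7% had the same sign there, against 64.6% of all probes, and 2491 were called in the same direction and 413 in the opposite one. Between 6mo and 1yr 46.2% of 4460 naive calls had the same sign in sham rats, against 48.6% of all probes, with 282 called the same way and 434 the opposite way. In the naive cortex 85.4% of 4441 hippocampal calls between 6mo and 1yr had the same sign, against 71.5% of all probes, and 8 were called there, where 0.0821% of tested probes were. The naive 6mo arrays also differed most in depth, with replicate 2 at 72.4% of probes well above background, and without that array 8159 probes were called between 6mo and 2wk. Without replicate 3 it was 6756.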

How the data were processed

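RNA of 36 of the 113 arrays was used here, from naive hippocampus, sham hippocampus and naive cortex, 4 arrays at each of 3 intervals. The authors hybridized 1 amplified RNA sample an array, in 1 color, and extracted spot intensity with Agilent Feature Extraction. The deposited values used are the processed signal intensity of each probe, already background-corrected by that software, with its flags. The authors' deposited value table was used as an alternative. It is on a scale close to the 75th percentile of each array (84.1% to 99.99% of probes well above background on an array matched within 0.05 on the log2 scale), although their methods name the median.

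Here control spots and spots flagged as outliers were left out, spots of a probe were averaged, and log2 intensity was taken relative to the 75th percentile of each array. The table of 45598 probes was named through RefSeq accessions (GRCr8), which gave 21109 probes (46.3%) a symbol, of 16581 genes. Of several probes of a gene the brightest on average over the 12 arrays was used. Groups were compared with limma 3.58.1 in R 4.3.3 (lmFit and eBayes, two-sided, all 3 intervals of a tissue fitted together, Benjamini-Hochberg), with calls at an adjusted p under 0.05. Where a probe was below background on all arrays of 1 group, a lower bound of the fold was given. The number of arrays limits the precision. The scripts were tested on simulated data.

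The genes named are the 10 largest rises and 10 largest falls between 2wk and 1yr among called genes without overlap, up to 4 genes each way that stood apart at 6mo, up to 4 called members of each list, and 12 genes given whatever their values (Dcx, Sox11, Mki67, Gfap, Mbp, Cd74, C4a, C3, Ttr, Bdnf, Arc and Nr3c1). Genes of the trend, of the tissue comparison and further members at 6mo were chosen after their values were seen. The samples, gene lists and tests were chosen with earlier results of these data known. Comparisons within sham rats and cortex, on the shared slide, and of the 6mo change between sham and naive rats were added after seeing the data. Alternatives were other scalings, normexp background correction (offset 50, on median signals, as the files hold no mean signal), other filters, a covariate, array weights, blocks and leaving out single arrays. Naive hippocampus at other intervals was measured on another array design and was not analysed here. The values of 1 list member called at 6mo are not reported here.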

Additional observations from a re-analysis of the deposited data

Results flagged for a closer look

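In groups of 4 arrays, 1 array lay far from the other 3 in 22 of 144 groups checked. The cut-off gives about 1 in 20 for independent groups of normal values. The groups here share arrays and were taken on the linear scale, so the count cannot be set against that rate. Values are signals relative to the 75th percentile of the array. The 6mo replicate 3 array was high for Cd74 (113.1 against 0.508 to 2.81), C3 (40.8 against 2.09 to 2.96), C4a (4.29 against 0.0769 to 0.237), Il18 (0.954 against 0.295 to 0.346), Cdca3 (0.103 against 0.0435 to 0.0480) and Mki67 (0.124 against 0.0385 to 0.0452). Its summed signals of microglia (340.3), antigen presentation (543.9) and complement (382.1) were high as well. The 6mo replicate 2 array, the one with the most probes above background, was high for Slc4a1 (0.119 against 0.0306 to 0.0398), Dcx (1.4 against 1.16 to 1.19) and Sox11 (0.239 against 0.0446 to 0.0641).

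The 1yr replicate 3 array was high for Ttr, the transthyretin gene of the choroid plexus (536.4 against 6.03 to 15.0), and for the sums of choroid plexus (583.1) and meninges (24.2). At 2wk, replicate 4 was high for Col1a1 (2.43 against 0.756 to 0.880), Tlr4 (0.0551 against 0.0339 to 0.0347) and the meninges sum (22.5), and replicate 2 for Mtarc1 (0.254 against 0.101 to 0.114), the antigen presentation sum (92.4 against 78.3 to 79.4) and the interferon sum (75.3 against 66.2 to 66.8). Rpl30l3 was low on 2wk replicate 3 (0.223 against 4.13 to 4.17).

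Between tissues, the 1yr against 2wk difference of Ctxn3 was 2.29 log2 higher in the hippocampus than in the cortex (limma adjusted p = 0.037). In this test 107 probes were called. Both results are from the fit that did not pair the tissues of a rat. The 6mo against 2wk difference was called as unlike in sham and naive hippocampus for 4159 probes. The 6mo arrays of both groups shared a slide, while their 2wk arrays did not.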

How the results depend on the processing

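Of 705 probes called between 1yr and 2wk, counts were 134 with the median of all probes as scaling (which moved the median difference of all probes by 0.117 log2), 10 with no filter, 158 with the replicate block, 184 with the share of probes above background as a covariate, 2277 with array weights, 1076 with only the groups compared fitted, 1809 by fold 1.4 and unadjusted p, and 130 to 825 without single arrays. Normexp raised the share of higher calls from 56.7% to 67.7%. Between 6mo and 2wk 7840 became 2334 (median), 4686 (no filter), 5106 (fold) and 5736 to 8159 without single arrays. Between 1yr and 6mo 4463 became 1443, 1169, 2667 and 2562 to 4460. The trend's 74 became 33 (median), 46 (quantile), 2 (no filter), 4 (replicate block), 5 (covariate), 2031 (array weights), 447 (log2 weeks) and 3 to 143. The 107 between tissues became 3 (median), 402 (normexp), 0 (no filter, 5844 at an unadjusted p under 0.05 in limma), 168 (all arrays above background), 1526 (array weights), 2245 (fold), 35 (rat block) and 0 to 599. The 0 between sham and naive rats became 426 by fold and stayed 0 in every other alternative run. The cause of these shifts was not tested. Mbp turned to -0.076 log2 under quantile normalization, and Gfap to 0.027 with the covariate and to -0.52 to 0.21 without single arrays. Of 21 rule-named genes called at 1yr, 9 kept the call without every single array. Replicate numbers do not pair rats across intervals (2 of 12 correlations over 0.1, median 0.014), and the replicate block gave 6856 and 3667 calls in the comparisons with 6mo. A slide block was not run, since each interval lay on 1 slide.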
